A study of Homo sapiens with 12 samples.

Results

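The cohesin release, acetylation and boundary genes described here are 10 genes chosen by name, WAPL, PDS5A, PDS5B, ESCO1, ESCO2, CDCA5, HDAC8, SGO1, ESPL1 and CTCF, out of the 32946 genes listed in the molecule-count tables of the study. The study introduced LAST-seq, a single-cell RNA-seq assay that copies captured RNA linearly by T7 transcription before any cDNA is made, and counted unique molecular identifiers (UMIs), the random tags that let each captured molecule be counted once. It used the assay on eHAP1 cells, a haploid human line derived from a chronic myeloid leukaemia, either wildtype (WT) or carrying an SCC4 knockout (KO), and on HEK293T cells, a human embryonic kidney line that carries the SV40 large T antigen. Every one of the 10 genes had a UMI in every library.

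The WT eHAP1 cells formed 2 batches of 73 and 75 cells, and the SCC4 KO cells formed 2 batches of 77 and 76 cells. The KO line was 1 clone made by delivering Cas9 and a guide RNA as a complex. Both eHAP1 lines were kept in medium with 10-Deacetylbaccatin-III, an agent that selects for haploid cells, and live haploid cells in G1 were sorted by their Hoechst stain and size. The HEK293T cells were sorted for live cells only, without a cell cycle gate, into 2 LAST-seq libraries and 2 CEL-seq2 libraries of 10 cells each, CEL-seq2 being an assay that amplifies linearly after cDNA has been made. The labels give the A60 spike-in mix for the first LAST-seq library, ERCC for the second, both mixes for the first CEL-seq2 library and ERCC for the second, so the 2 libraries of each assay also differ in spike-ins. A LAST-seq library of 10 wells of diluted HEK293T total RNA held no differences between cells. A HEK293T lysate library of 10 wells was made with each assay. Whether the lysate wells came from 1 pooled lysate is not given in the sources used here. Each eHAP1 genotype is a single sample in the labels, so the KO and WT cells were compared without a test, and a gene was called when its ratio passed 2-fold the same way in both batches.

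Cohesin is a ring of SMC and kleisin proteins that encircles DNA, is loaded by NIPBL with SCC4, and extrudes chromatin loops. WAPL, together with PDS5A or PDS5B, opens the ring and releases it from DNA. ESCO1 and ESCO2 acetylate the SMC3 subunit, which with sororin (the product of CDCA5) protects the ring from release, and HDAC8 removes that acetyl group from cohesin released in mitosis. Shugoshin (SGO1) shields centromeric cohesin until separase (ESPL1) cuts the kleisin at anaphase, and CTCF is the zinc-finger protein at which extruding cohesin stops, marking the boundaries of topologically associating domains (TADs).

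The gene that encodes SCC4 is MAU2 (ENSG00000129933, GRCh38, chr19:19320829-19358754, plus strand), and the coordinates of the members are on the same build. The guide the study lists for the knockout is shown first because the genotype rests on it. Below, the guide is in lower case and the 3 bases of its PAM, the motif Cas9 needs beside its target, are in capitals. It matched the plus strand of hg38 at chr19:19338850-19338869, in exon 5 of the 19 exons of the canonical MAU2 transcript and within the coding sequence.
MAU2 guide: gcacacgcttgagaaggaccTGG

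Promoter sequence is shown for the 4 members that passed 1.5-fold the same way in both batches of the KO, from 250 bases before the annotated start to 30 bases after it, taken from RefSeq on GRCh38.p14. Capitals mark CCAAT, which reads ATTGG on the other strand, and TTTGAA or TTCGAA, the letters of the cell cycle homology region found in promoters of genes that are read late in the cell cycle. Both strands of these 280 bases were searched, TTCGAA reads the same on both, and no motifs overlap in these sequences.
SGO1 chr3:20186177-20186456 minus strand: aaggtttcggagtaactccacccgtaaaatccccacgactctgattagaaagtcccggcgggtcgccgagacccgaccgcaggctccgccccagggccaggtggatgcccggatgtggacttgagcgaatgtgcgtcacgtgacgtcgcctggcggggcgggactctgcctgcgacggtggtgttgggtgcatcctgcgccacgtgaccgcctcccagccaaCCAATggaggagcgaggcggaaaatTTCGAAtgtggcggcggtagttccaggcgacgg
PDS5A chr4:39977882-39978161 minus strand: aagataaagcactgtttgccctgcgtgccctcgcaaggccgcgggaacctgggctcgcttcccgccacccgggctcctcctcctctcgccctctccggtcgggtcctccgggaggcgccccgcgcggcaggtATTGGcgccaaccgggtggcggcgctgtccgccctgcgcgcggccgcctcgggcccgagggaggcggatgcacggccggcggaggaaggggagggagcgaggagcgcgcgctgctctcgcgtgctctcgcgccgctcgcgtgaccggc
CDCA5 chr11:65084011-65084290 minus strand: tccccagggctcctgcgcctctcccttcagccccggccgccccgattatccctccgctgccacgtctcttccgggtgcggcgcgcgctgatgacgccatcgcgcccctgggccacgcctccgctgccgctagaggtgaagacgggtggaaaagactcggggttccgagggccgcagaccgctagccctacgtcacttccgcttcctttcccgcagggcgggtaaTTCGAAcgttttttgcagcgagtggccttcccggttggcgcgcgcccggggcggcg
ESPL1 chr12:53268049-53268328 plus strand: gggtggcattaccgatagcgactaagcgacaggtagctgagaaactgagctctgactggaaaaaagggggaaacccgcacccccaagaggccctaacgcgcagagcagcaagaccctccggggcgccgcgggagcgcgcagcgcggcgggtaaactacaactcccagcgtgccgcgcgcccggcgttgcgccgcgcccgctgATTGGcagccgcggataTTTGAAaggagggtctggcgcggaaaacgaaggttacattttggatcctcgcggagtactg

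In SGO1 the CCAAT began 28 bases before the start and a TTCGAA began 3 bases before it. In ESPL1 a CCAAT began 48 bases and a TTTGAA 31 bases before the start. In CDCA5 a TTCGAA began 26 bases before the start and no CCAAT was present in the window, and in PDS5A a CCAAT began 118 bases before the start with neither of the other motifs. The RefSeq starts of CDCA5 and PDS5A lie inside the gene spans given below, which are from GENCODE. The TTCGAA of CDCA5 also lies inside that gene's span. Of the 8 members in the promoter table, 5 held a CCAAT, against 33.6% of 35116 promoters. A TTTGAA was present in 3 of the 8 (14.5% of all promoters) and a TTCGAA in 2 of the 8 (1.34% of all promoters). These are matches of letters in a 280-base window, and no factor was measured at them.

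Sequencing depth differed between the libraries. The median was 89978 and 143882 UMIs per WT cell in batches 1 and 2, 81789 and 152433 per KO cell, and 142024 and 155214 per HEK293T cell by LAST-seq. Within WT batch 2 the total ran from 18022 to 926415 UMIs. Levels are therefore given in UPM, the UMIs of a gene per 1000000 UMIs on genes of the same library, and the intervals beside them are exact 95% intervals that cover counting error only. LAST-seq libraries reused well barcodes, 10 of 10 between the HEK293T libraries and 70 between the WT batches. The 2 batches of 1 genotype lay closer together than counting error gives for abundant genes and farther apart for sparse ones. Counting error alone gives a median absolute difference of 0.674 standard errors. Among the 1205 genes with a mean of 1000 to 5000 UMIs per WT batch the median was 0.368, and among 1096 such genes in the KO it was 0.237. It was 0.708 in WT and 0.717 in the KO for genes of 300 to 1000 UMIs, 1.30 and 1.16 for genes of 100 to 300, and 1.85 and 1.49 for genes of 20 to 100. PDS5A in WT was the only member in the most abundant of these classes. The 2 HEK293T LAST-seq libraries gave 2.58 for the most abundant class. The study removed a batch effect, and whether the deposited counts precede that step is not given in the sources used here, so it is not known here whether the 2 batches are independent measurements. As a check of the labels, NEFL, a neurofilament gene used here as an HEK293T marker, had 0 UMIs in both WT batches, 51 and 169 UMIs in the KO batches, and 42 and 15 UMIs in the HEK293T LAST-seq libraries, while PAX2, another such marker, was at 14.9 and 16.0 UPM in WT, 27.0 and 25.3 in the KO, and 0 and 1.32 in HEK293T cells. Of the 4 HEK293T markers, 2 had a UMI in WT and 4 in the KO, and their sum was 41.4 and 38.3 UPM in WT, 56.9 and 61.0 in the KO, and 75.1 and 79.5 in HEK293T cells. BCR and ABL1, the fusion partners of chronic myeloid leukaemia, summed to 10.3 and 12 UPM in WT, 10.7 and 15.3 in the KO, and 50.5 and 61.6 in HEK293T cells. The 3 blood cell markers found in the tables were at 0 in WT and summed to 1.09 and 0.942 UPM in the KO and 6.32 and 7.29 in HEK293T cells. Of these, CD34, a marker of blood progenitors, had 7 and 11 UMIs in the KO batches and 8 and 11 in the HEK293T libraries. The NEFL and CD34 counts are not scaled to depth. The KO batches held 6434247 and 11678465 UMIs on genes, and the HEK293T LAST-seq libraries 1424870 and 1509801. NEFL and CD34 thus had UMIs in the KO and in HEK293T cells and none in WT. The part of these differences in any KO value was not tested.

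The targeted gene was lower in the KO. MAU2 stood at 44.2 and 41.2 UPM in WT batches 1 and 2 and at 9.17 and 14.5 in the KO batches. The ratio of KO to WT was 0.207 (interval 0.154 to 0.274) in batch 1 and 0.351 (0.293 to 0.419) in batch 2. MAU2 UMIs thus remained in the KO, and 42.9% and 92.1% of KO cells had at least 1. After thinning each cell to 50000 UMIs the shares were 30.5% and 51.9% in the KO and 89.8% and 84.4% in WT. Assays of this kind read the poly-A end of a transcript, away from the guide's site, so the counts do not show the edit itself. The source of the remaining MAU2 UMIs was not tested.

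Among the 10 members, SGO1 was lower in the SCC4 KO by more than 2-fold in both batches, and no other member was called. The background was 7.06% of the 16662 genes tested for lower calls and 7.28% for higher calls. At 1.5-fold, ESPL1 was higher and SGO1, PDS5A and CDCA5 were lower, where 14.4% of all genes were higher and 12.4% were lower. Over the 10 members the median log2 ratio was -0.13, beside 0.05 over all genes tested. The counts, 1 of 10 at 2-fold and 4 of 10 at 1.5-fold, rest on few genes, and the ratios of all 10 are shown in the plot by batch.

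**Figure D1:**
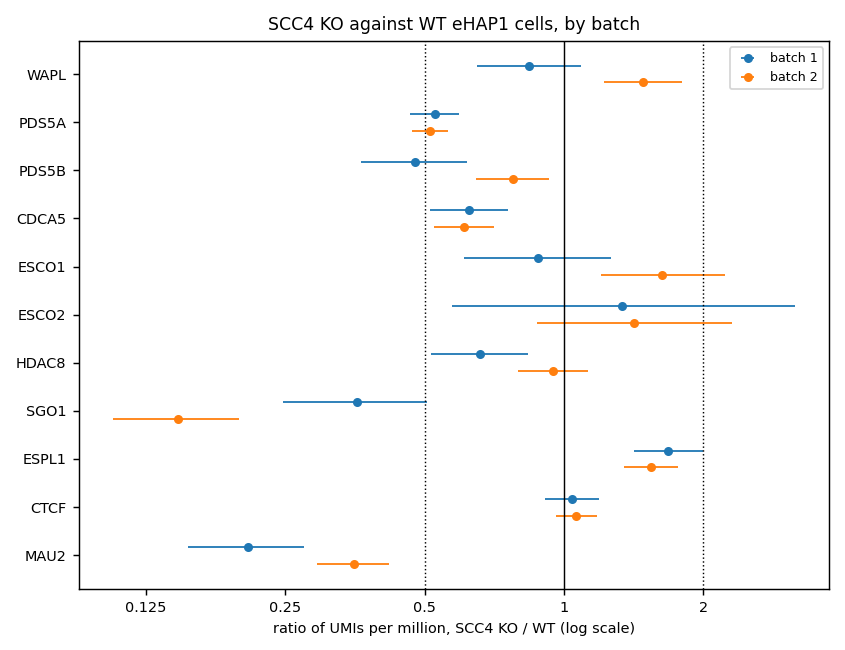
Ratio of UPM in SCC4 KO to WT eHAP1 cells on a log scale for each member and MAU2, as 1 point per batch with its exact 95% interval for counting error; dotted lines mark 2-fold. SGO1 lies below the lower line in both batches (0.357 and 0.147), PDS5A just above it (0.526 and 0.514), and ESPL1 to the right of 1 (1.68 and 1.54).

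The release factors did not move together. WAPL (ENSG00000062650, chr10:86435256-86521792), which drives release of the ring, was at 19.4 and 14.6 UPM in the WT batches and at 16.3 and 21.7 in the KO batches. Its ratio was 0.841 (0.648 to 1.09) in batch 1 and 1.48 (1.22 to 1.80) in batch 2, so the batches pointed in opposite directions and the groups overlapped.

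PDS5A (ENSG00000121892, chr4:39822863-39977956), one of the pair of PDS5 proteins that hold WAPL or sororin on the ring, was at 114 and 118 UPM in WT and at 60.1 and 60.5 in the KO. It was 1.90-fold lower in batch 1 (387 against 843 UMIs) and 1.95-fold lower in batch 2 (706 against 1447 UMIs). The intervals of the ratio, 0.465 to 0.594 and 0.469 to 0.563, reached past 2-fold in each batch, and both values fell short of the 2-fold call. The median WT cell held 9 and 17 PDS5A UMIs in batches 1 and 2, and the median KO cell held 5 and 9. Its batches differed by 0.648 standard errors of counting in WT and 0.0803 in the KO.

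PDS5B (ENSG00000083642, chr13:32586452-32778019), its paralogue, was at 27.4 and 23.4 UPM in WT and at 13.1 and 18.2 in the KO. The ratio was 0.476 (0.365 to 0.617) in batch 1 and 0.775 (0.646 to 0.929) in batch 2. Both KO values lay below both WT values, but only batch 1 passed 2-fold.

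CDCA5 (ENSG00000146670, chr11:65066300-65084164), which encodes sororin, the protein that counters WAPL on acetylated cohesin, was lower in the KO by 1.60-fold in batch 1 and 1.65-fold in batch 2. Its level was 42.1 and 39.6 UPM in WT and 26.3 and 24.1 in the KO, without overlap. The intervals of the ratio were 0.515 to 0.756 and 0.523 to 0.705. The median WT cell held 4 and 6 UMIs and the median KO cell 1 and 3.

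The acetylation genes gave smaller and less even differences. ESCO1 (ENSG00000141446, chr18:21529284-21600884), the acetyltransferase that works through interphase, was at 9.90 and 5.77 UPM in WT and 8.70 and 9.42 in the KO. The KO values lay between the WT values, with ratios of 0.879 (0.609 to 1.26) and 1.63 (1.20 to 2.23). ESCO2 (ENSG00000171320, chr8:27771949-27812640), the acetyltransferase of S phase, was near the floor of detection in eHAP1 cells. It had 12 and 32 UMIs in the WT batches and 14 and 43 in the KO batches, which is 1.63 and 2.60 UPM in WT and 2.18 and 3.68 in the KO. Its ratios of 1.34 (0.574 to 3.16) and 1.42 (0.875 to 2.31) had intervals that include 1, so a change was not detectable at this depth. ESCO2 also overlaps CCDC25 and PBK on the opposite strand, which had 567 and 700 UMIs in WT batch 1, and whether the counting used strand is not given in the sources used here.

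HDAC8 (ENSG00000147099, chrX:72329516-72573101), the SMC3 deacetylase, was at 26.2 and 22.8 UPM in WT and 17.3 and 21.6 in the KO. Both KO values were below both WT values, and the ratio was 0.659 (0.517 to 0.836) in batch 1 but 0.948 (0.796 to 1.13) in batch 2. In batch 2 the difference was therefore within counting error. HDAC8 also overlaps a protein-coding gene on the same strand, ENSG00000285547 (chrX:72301691-72572843), for which no library held a UMI. How reads that fall in both genes were counted is not given in the sources used here.

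The genes of sister chromatid protection and cleavage moved in opposite directions. SGO1 (ENSG00000129810, chr3:20160593-20186206), the centromeric protector, was at 18.7 and 28.0 UPM in WT and at 6.68 and 4.11 in the KO. This was 2.80-fold lower in batch 1 (43 against 138 UMIs) and 6.82-fold lower in batch 2 (48 against 345 UMIs), with intervals of the ratio of 0.247 to 0.506 and 0.106 to 0.199. The 2 intervals do not meet, so the size of the difference was not the same in the batches. Unlike PDS5A, SGO1 also differed between batches of 1 genotype beyond counting, by 4.04 standard errors in WT and 2.34 in the KO. Differences over 1.96 standard errors were common at such levels, in 34.0% of WT genes with 100 to 300 UMIs and 41.4% of KO genes with 20 to 100.

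The lower SGO1 level was spread over cells. At least 1 SGO1 UMI was found in 61.6% of WT cells in batch 1 and in 100% in batch 2, where the lowest cell had 1 UMI. In the KO the share was 39.0% and 38.2%. The median cell held 1 and 3 SGO1 UMIs in WT and 0 and 0 in the KO, and the highest held 11 and 34 in WT and 3 and 4 in the KO. When each cell was thinned to 50000 UMIs, which removes the difference in depth, the shares became 45.4% and 74.1% in WT and 28.9% and 16.9% in the KO. The antisense gene SGO1-AS1 had at most 6 UMIs in any library.

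ESPL1 (ENSG00000135476, chr12:53268299-53293638), which encodes separase, was higher in the KO, by 1.68-fold (1.42 to 2.00) in batch 1 and 1.54-fold (1.35 to 1.77) in batch 2. It stood at 30.7 and 29.6 UPM in WT and at 51.6 and 45.6 in the KO, without overlap. Neither ratio passed 2-fold. The median WT cell held 3 and 4 ESPL1 UMIs and the median KO cell 4 and 6, and after thinning to 50000 UMIs the share of cells with at least 1 was 71.6% in WT and 92.5% in the KO in batch 1, and 73.8% and 87.0% in batch 2.

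CTCF (ENSG00000102974, chr16:67562467-67639177), the boundary factor, was the member whose level was closest in the 2 genotypes. It was at 63.4 and 61.3 UPM in WT and 65.9 and 65.2 in the KO. The ratio was 1.04 (0.910 to 1.19) in batch 1 and 1.06 (0.960 to 1.18) in batch 2. Its batches differed by 0.563 standard errors of counting in WT and 0.185 in the KO.

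**Figure D2:**
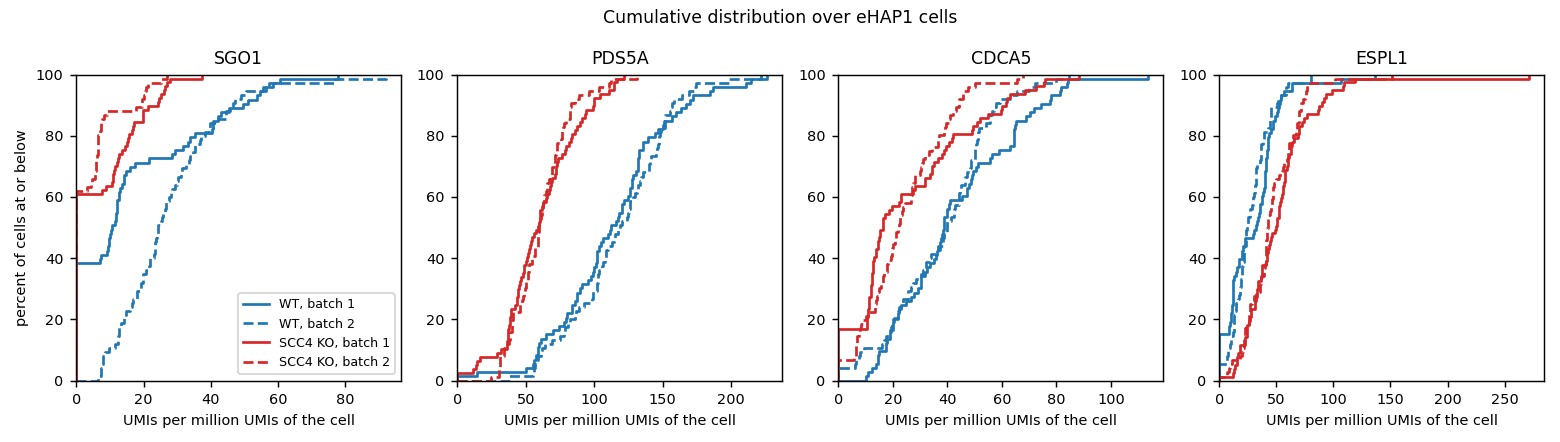
Cumulative share of eHAP1 cells (percent) at or below each level, in UMIs per 1000000 UMIs of the cell, for SGO1, PDS5A, CDCA5 and ESPL1; blue is WT and red SCC4 KO, solid lines are batch 1 and dashed lines batch 2. The red curves lie to the left for SGO1, PDS5A and CDCA5 and to the right for ESPL1, and the SGO1 curves start at the share of cells with 0 UMIs, which was above 60% in both KO batches.

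Across all 10 members, 5 had a lower share of cells with a UMI in the KO than in WT in both batches after thinning, beside 30.5% of all genes tested. Without thinning this held for 2 members, beside 20.5% of all genes.

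Calls among other genes of the pathway come from lists of named genes, beside a background of 7.06% of all genes lower and 7.28% higher. The same background applies to the cell cycle lists in the KO. Of the 7 genes of the cohesin ring and its loader, MAU2 was the only one lower by 2-fold in both batches and none was higher. Their median log2 ratio was -0.19, beside -0.13 over the members. SMC3, the subunit that the ESCO enzymes acetylate, had ratios of 0.752 and 0.684, the kleisin RAD21 had 0.865 and 0.848, and NIPBL, the partner of SCC4, had 1.21 and 0.744. Of the 14 genes that couple cohesion to replication, 12 passed the filter on low values and 0 were called. TIPIN, a fork protection factor, was lower past 1.5-fold (0.441 and 0.602).

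All 12 genes of mitotic removal and protection passed the filter, and CDK1, the mitotic kinase, was lower by 2-fold (ratios of 0.437 and 0.455). AURKB, the kinase of the chromosomal passenger complex, was lower past 1.5-fold (0.577 and 0.583). SGO2, the paralogue of SGO1, did not keep a direction, with ratios of 0.371 and 1.26, and PTTG1, the securin that inhibits separase, had 0.901 and 0.889. PLK1, which removes cohesin from chromosome arms, had 1.24 and 1.33. Of 5 genes that act with CTCF at boundaries, 3 passed the filter and 0 were called; YY1 had 1.21 and 1.20 and ADNP 1.12 and 1.09.

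SGO1, ESPL1 and CDCA5 are transcribed periodically, so cell cycle genes are given beside them. Of 31 G2/M genes that passed the filter, 0 were higher and 3, HJURP, KIF2C and CDCA2, were lower by 2-fold. The sum over the list was 1723 and 1676 UPM in WT and 1595 and 1554 in the KO. The median log2 ratio was -0.19 over the G2/M genes and 0.01 over the S-phase genes, beside -0.13 over the members. Of 27 S-phase genes, 2 were higher (POLD3, and TYMS, on 9 UMIs or fewer in any batch) and 2 lower (E2F1 and CLSPN), and their sum was 2141 and 2143 in WT and 2143 and 2113 in the KO. The part of cell cycle position in the SGO1 and ESPL1 values was not tested.

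HEK293T cells were compared with WT eHAP1 cells within LAST-seq, asking for 2-fold the same way in all 4 pairings of 2 libraries with 2 batches. The cell line and the G1 gate, which only the eHAP1 cells passed, cannot be told apart. ESPL1 was the only member called, and it was higher in HEK293T cells, against a background of 17.2% of 18038 genes called higher and 12.4% called lower. At 1.5-fold, WAPL, CTCF and ESCO2 were also higher and 0 members were lower, where 24.7% of all genes were higher and 17.5% lower. The median log2 ratio was 0.13 over the members and 0.18 over all genes, and with TMM factors the median of all genes became -0.09.

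ESPL1 was at 74.4 and 101 UPM in the libraries of HEK293T cells, above both WT values. The LAST-seq RNA and lysate libraries of HEK293T, 1 each, were at 38.8 and 32.6, closer to WT than the cells were. The ratios of the HEK293T cells to WT ran from 2.43 (1.91 to 3.07) to 3.42 (2.82 to 4.15). Over the LAST-seq cells ESPL1 stood lowest in WT, higher in the KO and highest in HEK293T cells without overlap. WAPL was at 33 and 48.4 UPM in HEK293T cells, with ratios from 1.70 (1.20 to 2.38) to 3.30 (2.48 to 4.36). CTCF was at 96.9 and 131, with ratios from 1.53 (1.25 to 1.85) to 2.14 (1.82 to 2.51), and both HEK293T values lay above both WT and both KO values, which did not differ from each other beyond counting error. ESCO2 was at 4.91 and 9.94, with ratios from 1.89 (0.704 to 4.36) to 6.10 (2.67 to 14.3), on 7 and 15 UMIs.

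The remaining members did not pass 1.5-fold in every pairing. PDS5A was at 87.0 and 74.8 UPM in HEK293T cells, below both WT values and above both KO values, with ratios to WT from 0.636 (0.521 to 0.771) to 0.761 (0.625 to 0.920). HDAC8 was at 16.1 and 14.6, also below WT, with ratios from 0.556 to 0.709. PDS5B (33 and 13.9), CDCA5 (29.5 and 54.3), SGO1 (15.4 and 29.8) and ESCO1 (6.32 and 12.6) each differed between the 2 HEK293T libraries enough to lie on both sides of a WT value. For these 4 genes the 2 HEK293T libraries differed by more than 1.8-fold, so the cell lines could not be ordered.

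**Figure D3:**
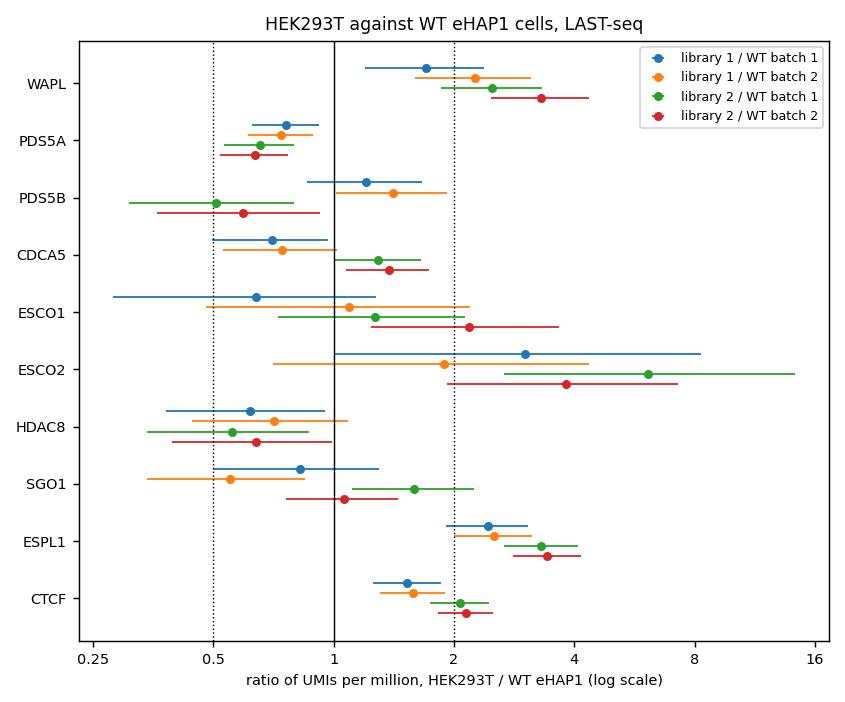
Ratio of UPM in HEK293T to WT eHAP1 cells, both by LAST-seq, on a log scale, with 1 point for each pairing of a HEK293T library and a WT batch and exact 95% intervals for counting error. All 4 points of ESPL1 lie past the 2-fold line, and the points of SGO1, PDS5B, CDCA5 and ESCO1 lie on both sides of 1.

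Cell cycle genes are again given beside ESPL1, and their part in its value was not tested. The G2/M sum was 1863 and 2665 UPM in the LAST-seq libraries of HEK293T cells, above both WT sums. In the LAST-seq RNA and lysate libraries of HEK293T it was 1444 and 1507, below both WT sums. Of 32 G2/M genes, 5 were called higher and 0 lower, beside 17.2% of all genes higher and 12.4% lower. The S-phase sum was 2599 and 2321 in the HEK293T cells, and of 27 S-phase genes 5 were called higher and 3 lower. Of the 12 genes of mitotic removal and protection, INCENP, a chromosomal passenger subunit, was higher in HEK293T cells in all pairings (ratios from 3.89 to 5.33), and of the ring and loader genes 0 were called. Of the 12 tested genes that couple cohesion to replication, DSCC1, a subunit of the clamp loader that acts in cohesion, passed 1.5-fold (1.65 to 2.09).

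**Figure D4:**
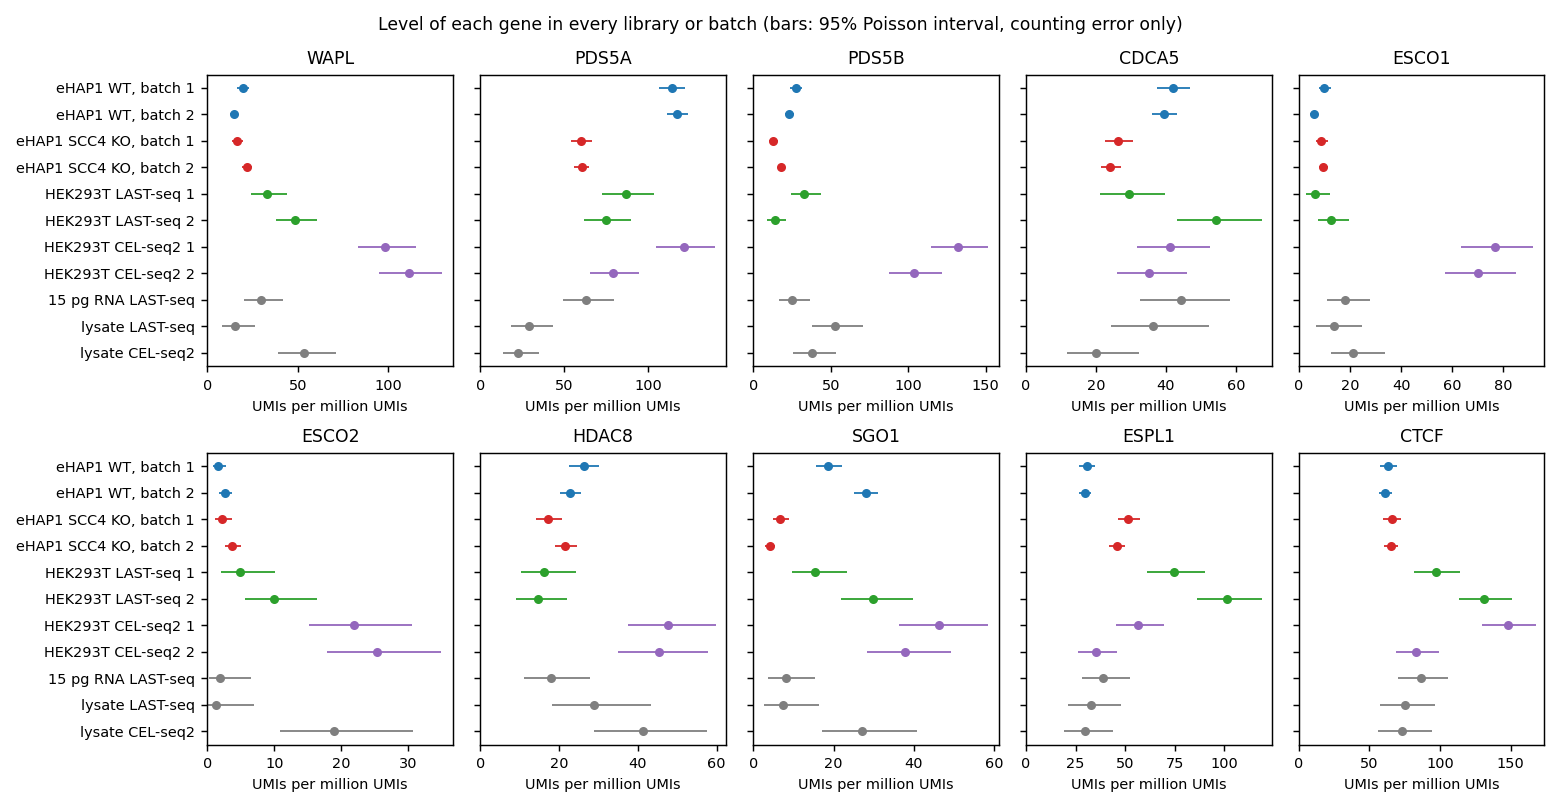
Level of each member in every library or batch, in UPM, with 95% Poisson intervals for counting error; blue is WT and red SCC4 KO eHAP1, green HEK293T by LAST-seq, purple HEK293T by CEL-seq2 and grey the RNA and lysate libraries. SGO1 is lowest in the KO batches among the cell libraries (6.68 and 4.11), and ESCO1 and PDS5B are highest in the CEL-seq2 cells (76.6 and 70.1, and 132 and 104).

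Some members differed between assays. HEK293T cells by LAST-seq and by CEL-seq2, 2 libraries each, were compared with edgeR's quasi-likelihood test over 22889 genes with Benjamini-Hochberg adjustment. Of the 10 members, 1 was higher and 2 were lower in LAST-seq, against 5.56% of all genes higher and 7.51% lower. The median log2 difference of LAST-seq to CEL-seq2 was -0.78 over the members and -0.57 over all genes.

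ESCO1 had the largest difference among the members, at 6.32 and 12.6 UPM by LAST-seq and 76.6 and 70.1 by CEL-seq2, a log2 difference of -2.59 with an edgeR adjusted p of 0.000465. PDS5B was at 33 and 13.9 by LAST-seq and 132 and 104 by CEL-seq2, a log2 difference of -1.97 with an edgeR adjusted p of 0.00205. ESPL1 went the other way, at 74.4 and 101 by LAST-seq and 56.6 and 35.0 by CEL-seq2, a log2 difference of 1.30 with an edgeR adjusted p of 0.0173. The ESPL1 call was lost without the second LAST-seq library (log2 difference of 1.09) and without the second CEL-seq2 library (1.06).

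WAPL was at 33 and 48.4 UPM by LAST-seq and 98.4 and 111 by CEL-seq2, without overlap, and did not pass with an edgeR adjusted p of 0.0637. Without the first CEL-seq2 library it did pass, at a log2 difference of -1.19. HDAC8 (log2 difference of -1.24, edgeR adjusted p of 0.0725) and ESCO2 (-1.32, edgeR adjusted p of 0.183) likewise stood lower in both LAST-seq libraries without passing. For SGO1, CDCA5, CTCF and PDS5A the edgeR adjusted p ran from 0.403 to 0.914. Among the ring and loader genes SMC3, STAG1 and NIPBL were lower in LAST-seq and MAU2 was higher. Without the second CEL-seq2 library the MAU2 call was lost (edgeR adjusted p of 0.0617), as was that of STAG1 (edgeR adjusted p of 0.0861).

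The wells of RNA and lysate gave further levels of the members in HEK293T material. In the RNA library PDS5A was at 63.1, CTCF at 86.6, CDCA5 at 44.2 and ESPL1 at 38.8 UPM. SGO1 there was at 8.12 (9 UMIs) and in the LAST-seq lysate at 7.52 (6 UMIs), against 15.4 and 29.8 in the cells by the same assay. PDS5B was at 52.6 in the LAST-seq lysate and 25.3 in the RNA. The cells, the lysate and the RNA are separate preparations with 1 library for each of the last kinds, so these values have no replicate check.

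Spread between wells was expressed as the excess of the squared coefficient of variation over that of counting alone, after scaling each well to the median total. In 6 of the 10 members this excess was larger in both HEK293T LAST-seq libraries than in the RNA library. Among the 8 members that averaged 1 UMI or more in all 3 libraries it was larger in 4, beside 42.1% of 7718 such genes. Over all genes that averaged 1 UMI or more the median excess was 0.0124 and 0.0106 in the HEK293T LAST-seq libraries and 0.000105 in the RNA library, and it was 0.160 and 0.173 in the CEL-seq2 cells. Of the members that averaged 1 UMI or more, 4 of 8 and 7 of 10 lay above the median of their LAST-seq library.

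For ESPL1 the excess was 0.0629 and 0.0464 in the HEK293T LAST-seq libraries and -0.0165 in the RNA library, where a negative value means less spread than counting gives. PDS5A had -0.0301 and -0.0119 in the cells and -0.0453 in the RNA. Without scaling to depth, its 4 to 20 and 7 to 18 UMIs per cell gave 0.0642 and 0.00557. CDCA5 had 0.271 and 0.159 in the cells and -0.0932 in the RNA, and ranged from 0 to 9 and from 4 to 17 UMIs per cell. With 10 wells a library, these excesses carry wide error.

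In eHAP1 cells the excess of SGO1 was 0.739 in WT batch 1 and 0.0706 in WT batch 2, and 0.212 and 1.21 in the KO batches, so it did not separate the genotypes. That of PDS5A was 0.0455 and 0.0370 in WT and 0.000914 and 0.00889 in the KO. The medians over all genes were 0.0393 and 0.0806 in WT and 0.0704 and 0.0421 in the KO. PDS5A was thus lower in level in both KO batches, and its small excess was also lower, without an error estimate. Totals per cell varied more in WT (coefficients of variation of 0.465 and 0.693) than in the KO (0.242 and 0.228). The part of depth in these excesses was not tested, so no difference in spread between the genotypes is read from them. ESPL1 was higher in level in the KO, with an excess of 0.295 and 0.129 in WT and 0.232 and 0.123 in the KO.

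**Figure D5:**
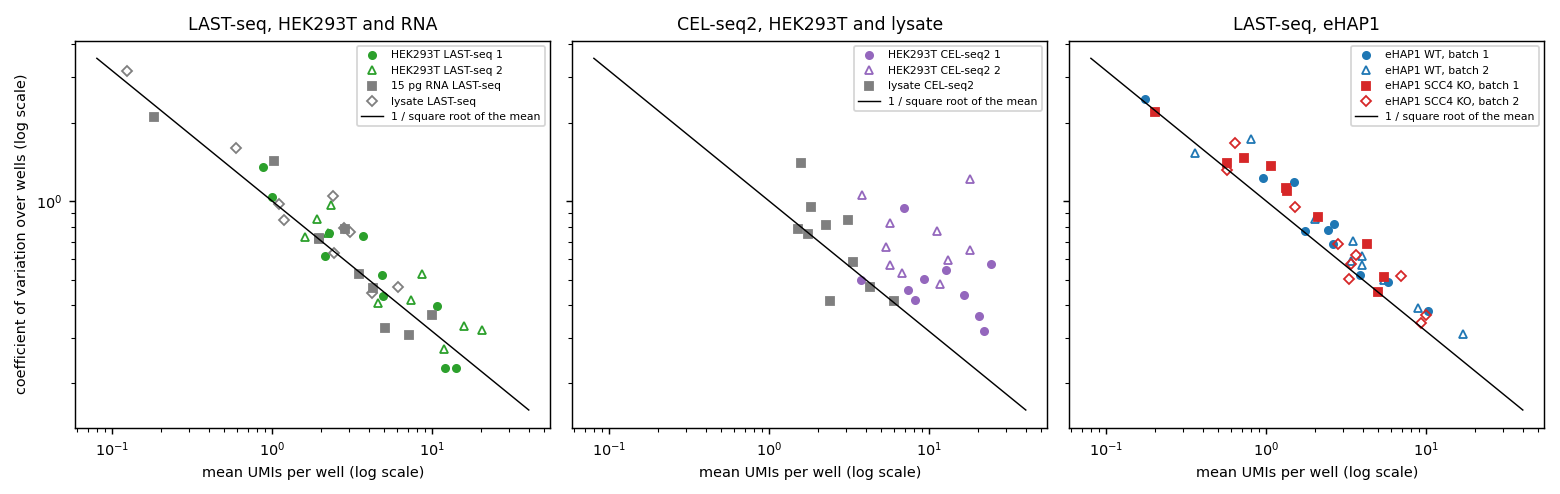
Coefficient of variation over wells against mean UMIs per well, both on log scales, for the 10 members in each library; the line is the value counting alone gives, 1 over the square root of the mean. Most LAST-seq points of HEK293T cells lie near the line, and the CEL-seq2 points of cells lie above it for means over 10.

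Within WT cells no member followed another gene closely. The genes most like each of the 8 members that averaged 2 UMIs or more per WT cell were taken from 6816 genes by the mean of the Spearman rho within each batch. The highest values were 0.331 for WAPL with RPL21P84, 0.325 for ESPL1 with ENSG00000242327 and 0.322 for CTCF with GMPS. In KO cells the same pairs gave 0.072, -0.083 and 0.192. PDS5B was most like PHTF2 (0.305 in WT and 0.017 in the KO) and HDAC8 like ELOC (0.307 and 0.074). SGO1 was most like PHPT1 (0.307 in WT and -0.033 in the KO), PDS5A like SLC16A3 (0.272 and 0.069) and CDCA5 like TUFM (0.321 and 0.031). These are correlations over cells that share a library and depth, chosen as the highest of many, and in sparse counts they describe no shared pattern.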

How the data were processed

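Single-cell, lysate and RNA libraries made by LAST-seq and CEL-seq2 were analysed from the count tables the authors deposited, which hold whole-number UMI counts per gene and well, not scaled to depth. Per the study's methods, reads were demultiplexed with bcl2fastq 2.20, trimmed with cutadapt and counted with zUMIs against GRCh38 and GENCODE, wells with few exon reads or a low exon mapping rate were removed, and a batch effect was removed with ComBat-seq; whether the deposited counts precede that step is not given in the sources used here. The SMART-seq tables and the read tables were not used.

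Ensembl IDs were paired with symbols by GENCODE. Counts were summed over the wells of a library or batch and divided by the total on genes, spike-ins excluded. Genes that averaged 0.1 UMI or more per well in either group were compared, with 0.5 UMI added for log2 ratios. Ratios carry exact 95% intervals that cover counting error only. KO against WT and HEK293T against WT were called by fold (2, or 1.5) in every pairing, since each eHAP1 genotype is 1 sample of 1 clone. LAST-seq against CEL-seq2 was tested with edgeR 4.0.16 (R 4.3.3) at an adjusted p of 0.05; nothing in the labels says that libraries came from separate cultures, so p-values measure the spread between libraries. DESeq2 1.42.0 was an alternative. Other values were computed with Python 3.11.15, with pandas 2.3.3, numpy 2.4.6 and scipy 1.17.1, and the tests were tried on simulated data. Shares of cells were computed after thinning each cell to 50000 UMIs and also unthinned.

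The members and gene lists were chosen with earlier results of these data known. The genes named are the 10 members, MAU2, genes of the lists where a count over a list is given, and for each member that averaged 2 UMIs or more per WT cell the 3 genes most like it, of which the first is printed. The alternative without wells over 3 times the median depth was chosen after seeing the data.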

Additional observations from a re-analysis of the deposited data

Results flagged for a closer look

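Of 70 groups of 10 wells, 15 held a well whose level of a member lay far from the other 9, where chance gives about 1 in 20. That rate holds for normally distributed values and was not established for sparse counts, so no excess is read from the number; some of these values rest on 1 to 3 UMIs. In each case the well was the highest. In the HEK293T cells by LAST-seq these were ESPL1 at 141 UPM in the first library and 187 in the second, WAPL at 93.6, PDS5B at 51.3 and CDCA5 at 126 in the second, and ESCO1 at 24.2 in the first, which was 2 UMIs. The ESPL1 wells were also the wells with the highest sum over the G2/M genes in their libraries, 2459 UPM beside 2145 for the next well and 3756 beside 2817, and the CDCA5 well had the highest S-phase sum, 3140 beside 2848. Over the 10 wells, Spearman's rho of ESPL1 with the G2/M sum was 0.49 in the first library and -0.20 in the second, and that of CDCA5 with the S-phase sum in the second was 0.21. The part of cell cycle position in these values was not tested.

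In the CEL-seq2 cells the wells were WAPL at 310, PDS5B at 509 and CTCF at 211 in the second library, and CDCA5 at 150 and CTCF at 353 in the first. The 3 values in the second library came from 1 well, which had the lowest total of that library, 80558 UMIs, and the highest G2/M sum, 6269 UPM beside 5309. In the lysates they were PDS5A at 74.3 and CDCA5 at 84.9 by CEL-seq2, and SGO1 at 36.0 (3 UMIs) and ESCO2 at 15.1 (1 UMI) by LAST-seq.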

How the results depend on the processing

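SGO1 and MAU2 were called lower in the KO under every alternative tried, and ESPL1 was called higher in HEK293T than in WT eHAP1 cells under every alternative tried. The genes called between KO and WT numbered 2390. This became 6739 without the filter on low values, 4470 at 1.5-fold, 4068 with both batches pooled, 4630 by edgeR without a block, 5457 by edgeR with the replicate block and 4721 by DESeq2, and 4626 to 4941 with 1 batch left out. The 3 model fits also called PDS5A, PDS5B and CDCA5 lower and ESPL1 higher, with or without the replicate block. They took the 2 batches of 1 clone as replicates, so their p-values measure only the spread between batches. They called 1 of the 10 members higher and 4 lower, beside 4630 to 5457 of 16662 genes in either direction. Of the 31 G2/M genes, the same fits called 12 to 13 lower and 2 to 5 higher. Of the 7 ring and loader genes, MAU2 included, they called 4 lower and 0 higher. The batch differences of WT and KO correlated at 0.0279 over 16662 genes, which gives no sign of pairing by batch number but does not settle it, since a batch effect may already have been removed from the counts. Without batch 2, PDS5B was called as well. Between HEK293T and WT cells 5331 genes were called, and 6726 to 8476 with 1 library or batch left out. With TMM factors the share of calls that were higher went from 58.1% to 47.3%. Of the members, PDS5A was called lower in HEK293T cells by edgeR (log2 difference of -0.79) and by DESeq2 (-0.74). WAPL and CTCF were called higher by edgeR and not by DESeq2. These fits also took the 2 WT batches of 1 sample as replicates. Between assays edgeR called 2991 genes, and 2309 to 2904 with 1 library left out. The PDS5A difference between assays, near 0, went from 0.06 to -0.08 without the first LAST-seq library and to -0.15 without the second CEL-seq2 library, and ran up to 0.31 with another library left out. The count of members with a lower share of cells in the KO was 5 after thinning to 50000 or to 20000 UMIs and 2 without thinning. The causes of these changes were not tested. Depth limits ESCO2 most, at 12 to 43 UMIs per eHAP1 batch.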
